A study of Mus musculus with 6 samples.

Results

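This section describes 10 genes that set epithelial identity, the Grainyhead-like factors *Grhl1*, *Grhl2* and *Grhl3*, the OVO-like factors *Ovol1* and *Ovol2*, the splicing regulators *Esrp1* and *Esrp2*, the ETS factors *Elf3* and *Ehf*, and *Klf5*. The members were chosen by gene symbol, and 10 of 10 were found among the 23420 genes listed. RNA was measured in whole mouse lungs of stage E11.5dpc, with 3 control pools (*Raptorf/+; ShhCre/+*) and 3 mutant pools (*Raptorf/f; ShhCre/+*), each made of several lungs of 1 genotype. *Raptor* (*Rptor*) encodes the subunit that defines mTOR complex 1. *ShhCre* is active in the lung epithelium and in other cells that express *Shh*, so mesenchyme, vessels and blood were not targeted. Control lungs carried *ShhCre* and a single floxed allele as well. The comparison asks how the epithelial regulators stood in lungs whose epithelium was targeted for loss of mTOR complex 1.

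These genes act at different steps. GRHL proteins bind enhancers and promoters of epithelial genes, including those of E-cadherin and claudins, and help to open chromatin there. OVOL proteins are zinc finger repressors that hold back mesenchymal regulators such as ZEB1. ESRP proteins act on RNA and direct the epithelial splice forms of transcripts such as *Fgfr2*. ELF3 and EHF are ETS factors found mainly in epithelia, and KLF5 is a zinc finger factor of proliferating epithelium.

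The set of RefSeq windows at hand (GRCm38.p6), each the 250 bases before a gene start, did not hold every gene. Windows were present for 4 of the 10 genes, which were *Grhl1* (with a pair of starts), *Grhl3*, *Ovol2* and *Elf3*. They were searched on both strands for the GRHL element AACCNGTT, for CACCTG, a sequence that ZEB and SNAIL repressors can bind, and for the ETS sequence GGAAGT. Of all 32851 windows of this length, 1.79% held AACCNGTT, 17.2% held CACCTG and 19.7% held GGAAGT. The *Elf3* and *Grhl3* windows are shown because each held 1 CACCTG, which stands in capitals. The *Elf3* stretch is the 154 bases of its window outside annotated exons, on the minus strand at chr1:135258569-135258722 of GRCm38.p6, and the *Grhl3* window lies on the minus strand at chr4:135573633-135573882. Both run 5′ to 3′.
Elf3: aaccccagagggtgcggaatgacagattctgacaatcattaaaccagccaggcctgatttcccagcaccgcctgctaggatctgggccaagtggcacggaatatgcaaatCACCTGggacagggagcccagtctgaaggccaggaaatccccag
Grhl3: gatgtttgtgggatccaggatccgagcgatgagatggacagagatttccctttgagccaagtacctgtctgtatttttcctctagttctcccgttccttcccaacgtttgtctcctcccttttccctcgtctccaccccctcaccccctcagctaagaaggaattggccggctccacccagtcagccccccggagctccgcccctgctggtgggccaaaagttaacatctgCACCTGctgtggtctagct
In *Elf3* the match began 140 bases before the start and in *Grhl3* 19 bases before it. The *Ovol2* window held 1 GGAAGT and the *Grhl1* windows held none of these sequences. AACCNGTT was not found in any of the 5 windows. These matches describe letters and not bound sites.

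Libraries held 20197642 to 21276090 reads assigned to genes, and values are normalized counts, that is, reads over each library's size factor. Reads of the targeted gene were counted over its whole length in whole lungs. *Rptor* stood at 2126, 2193 and 2279 in control pools and at 2023, 2137 and 2148 in mutant pools (limma adjusted p = 0.584). These values overlapped, so the labels could not be checked by this gene. With limma on log2(normalized count + 1) and Benjamini-Hochberg adjustment, 86 of 17168 tested genes (0.501%) had an adjusted p under 0.05, and 0.315% of tested genes were called lower and 0.186% higher in mutant pools. Log2 fold changes (mutant against control) are on this scale, which understates changes of low genes. All 10 regulators passed the filter on low values, and 9 of 10 had a lower mean in mutant pools, against 50.5% of all tested genes with a negative log2 fold change. Their median log2 fold change was -0.51, beside -0.00212 over all tested genes. *Grhl2* was called lower and no regulator was called higher at an adjusted p under 0.05. At an unadjusted p under 0.05, 6 regulators were lower and 0 were higher, where the shares over all tested genes were 6.89% and 6.67%. In the same 6, which were *Grhl2*, *Ovol2*, *Esrp1*, *Esrp2*, *Elf3* and *Klf5*, each mutant pool was below each control pool, as in 10.5% of tested genes, while no regulator had each mutant pool above each control pool, as 9.77% of tested genes did. The regulators were chosen with earlier results of these data known, so these counts are not independent support. In whole lungs, fewer epithelial cells and less RNA per epithelial cell cannot be told apart.

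**Figure D1:**
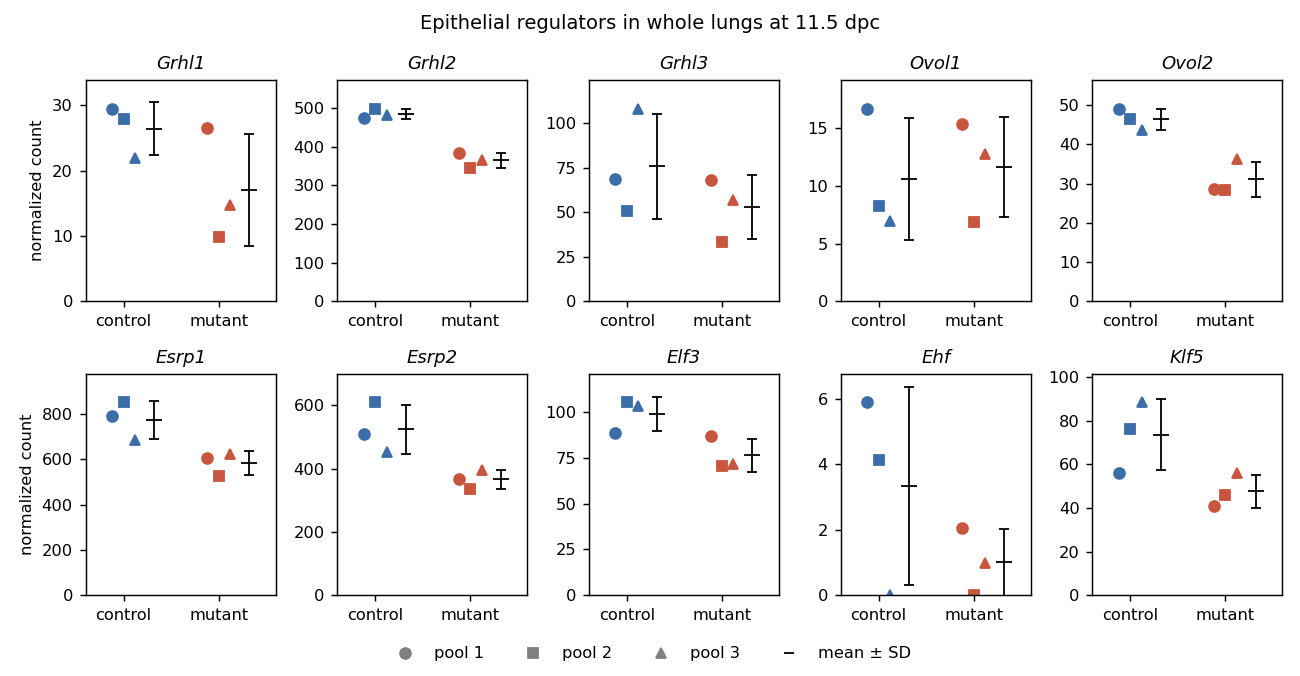
Normalized counts (linear axes from 0) of the 10 regulators in the 3 control and 3 mutant pools, with symbols for pool numbers and the mean ± SD beside each group. *Grhl2*, *Esrp1* and *Esrp2* show a gap between the groups, while *Klf5* and *Elf3* nearly touch and *Grhl1*, *Grhl3*, *Ovol1* and *Ehf* overlap.

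*Grhl2* was the most abundant Grainyhead-like gene and had an adjusted p under 0.05, while *Grhl1* and *Grhl3* had larger fold changes with wider intervals that held 0. *Grhl2* is known as the main GRHL factor of lung epithelium, and its locus spans 37233036 to 37363569 of chromosome 15 (GRCm38). *Grhl2* stood at 474, 499 and 483 normalized counts in control pools, against 384, 346 and 365 in mutant pools. The 3 control values lay within a narrow band and well above the mutant values. The mean went from 485 ± 12.5 (SD, n = 3) to 365 ± 19.0 (SD, n = 3), so that *Grhl2* fell by 24.8%. Its log2 fold change was -0.41 (standard error 0.07, 95% interval -0.57 to -0.25, limma adjusted p = 0.0415). edgeR on the recovered reads gave an adjusted p of 0.0431 and DESeq2 one of 0.0134. The call was lost with the replicate number as a block (limma adjusted p = 0.0670), with a pseudocount of 10 (adjusted p = 0.0525), without the variance trend (adjusted p = 0.187), and without any 1 of the pools other than control pool 3 (limma adjusted p from 0.0618 without control pool 2 to 0.247 without mutant pool 3).

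*Grhl1* and *Grhl3* are best known from skin, where they act in the barrier. *Grhl1* was at 29.5, 27.9 and 21.9 in control pools and at 26.6, 9.80 and 14.7 in mutant pools. Mutant pool 1 lay among the control pools, and the log2 fold change of -0.70 had a 95% interval of -1.47 to 0.07 (limma adjusted p = 0.407). It was -0.39 without mutant pool 2 and -1.06 without mutant pool 1. *Grhl3* was at 68.8, 50.6 and 108 in control pools and at 68.5, 33.3 and 56.9 in mutant pools. Its spread within groups was wide, with a log2 fold change of -0.50 (95% interval -1.20 to 0.19, limma adjusted p = 0.518) that was -0.22 without control pool 3, -0.21 without mutant pool 2 and -0.76 without control pool 2.

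The spread of *Grhl3* ran with that of *Trp63*, the basal cell factor of stratified and airway epithelium. This pair was picked out after the values were seen. The normalized count of *Trp63* was 35.4, 7.23 and 89.5 in control pools, against 32.7, 9.80 and 30.4 in mutant pools. Control pool 3 was the highest library for both genes, and the number 2 pools of each group were the lowest for both. Over the 6 libraries, Pearson's r of the log2 values was 0.89 and Spearman's coefficient 0.94, and without control pool 2 and mutant pool 2 r was 0.97 over 4 libraries. Of these 4, *Trp63* was 30.4 to 35.4 in all but control pool 3, so this r rests largely on that pool. These points share libraries and dissections. The list of stratified epithelium markers held 5 genes, of which 3 were tested and 0 were called by limma, edgeR or DESeq2 or had an unadjusted limma p under 0.05, and its summed normalized count was 91.9 to 163 in control pools and 118 to 135 in mutant pools. *Krt5* stayed at 3.10 to 13.3 in all libraries and *Krt14* at 60.9 to 103, while *Krt4* was at 0 in each library and *Krt13* was at 0 in all but mutant pool 1, and neither was tested. For *Grhl2*, r with *Trp63* was 0.19. The part of stratified tissue in these values was not tested.

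**Figure D2:**
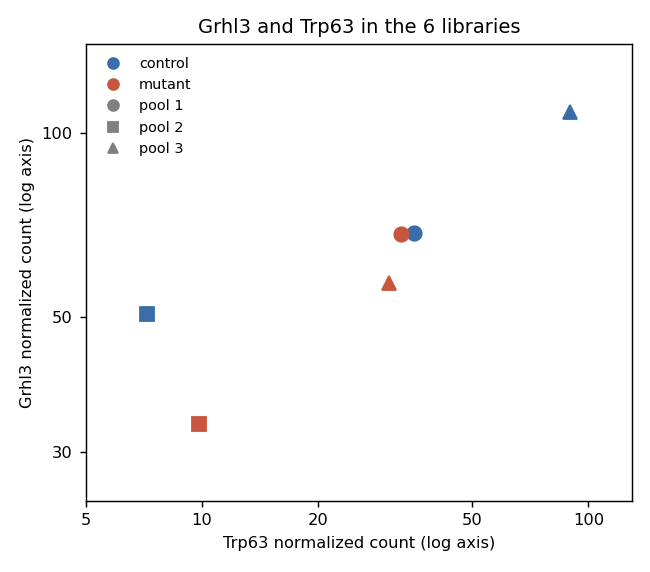
Normalized counts of *Grhl3* (vertical, log axis) against *Trp63* (horizontal, log axis) in the 6 libraries, colored by group and with symbols for pool numbers. Control pool 3 stands at the top right at 108 and 89.5, and both number 2 pools stand at the left.

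*Ovol2* was the main OVO-like gene in these lungs. Its normalized count was 49.1, 46.5 and 43.7 in control pools, against 28.6, 28.4 and 36.3 in mutant pools. The groups did not overlap, and the mean of 46.4 ± 2.69 (SD, n = 3) compared with 31.1 ± 4.50 (SD, n = 3). The log2 fold change of -0.57 (95% interval -1.01 to -0.13) had a limma unadjusted p of 0.0160 and an adjusted p of 0.237. *Ovol1* was at 16.7, 8.26 and 6.96 in control pools and at 15.3, 6.86 and 12.8 in mutant pools. Its groups overlapped throughout, with a log2 fold change of 0.15 and a 95% interval of -0.78 to 1.07 (limma adjusted p = 0.911). Without control pool 3 this log2 fold change was -0.083 and without mutant pool 1 it was -0.071. A total of 32 reads in control pools and 35 in mutant pools lay behind it, so a modest change would not have been detectable at this depth.

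Among the splicing regulators, *Esrp1* was at 790, 851 and 685 in control pools and at 605, 526 and 623 in mutant pools. *Esrp2* was at 509, 610 and 454 in control pools and at 367, 334 and 397 in mutant pools. Both genes kept the same order of pools within the control group, with pool 2 highest and pool 3 lowest, and both had mutant pool 2 as their lowest library. *Esrp1* had a log2 fold change of -0.40 (95% interval -0.61 to -0.20, limma adjusted p = 0.0999), and *Esrp2* one of -0.51 (95% interval -0.75 to -0.27, adjusted p = 0.0844), so neither passed. Both passed without control pool 3 (limma adjusted p = 0.00607 for *Esrp1* and 0.00601 for *Esrp2*), where 2.75% of tested genes passed (1.68% lower and 1.08% higher), and in DESeq2 on the recovered reads (adjusted p = 0.0107 and 0.00500), where 1.99% passed (1.19% lower and 0.801% higher). In edgeR, which called 0.539% of tested genes, their adjusted p was 0.0974 and 0.0843.

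The balance within a pair was compared as a log2 ratio in each library, which hardly depends on the size factor. The ratio of *Esrp1* to *Esrp2* was 0.63, 0.48 and 0.59 in control pools, against 0.72, 0.65 and 0.65 in mutant pools. Each mutant pool was above each control pool by a small margin, and the difference of 0.11 had an exact permutation p of 0.1 (two-sided), the smallest that 3 pools against 3 allow. It was 0.062 without control pool 2. Adjusted over the 5 ratios examined, this p was 0.5. The ratio of *Ovol1* to *Ovol2* averaged -2.12 ± 0.54 (SD, n = 3) in controls against -1.40 ± 0.52 (SD, n = 3) in mutants (exact permutation p = 0.2). Its groups overlapped, with control pool 1 at -1.50 and mutant pool 2 at -1.90. The ratios of *Grhl1* to *Grhl2*, *Grhl3* to *Grhl2* and *Elf3* to *Ehf* overlapped as well, with exact permutation p of 0.6, 0.9 and 0.7. With these pools, none of the 5 ratios could reach a p under 0.05.

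Of the genes whose transcripts ESRP proteins are known to splice, 6 were listed and 0 were called by limma or edgeR, while DESeq2 called *Fgfr2* lower. At an unadjusted limma p under 0.05, 1 was lower and 1 higher. *Fgfr2*, the epithelial receptor for FGF10 in its ESRP-directed form, was at 2941, 3298 and 2936 in control pools and at 2724, 2512 and 2618 in mutant pools. These groups did not overlap (log2 fold change -0.22, limma adjusted p = 0.124, DESeq2 adjusted p = 0.0314). *Arhgef11*, a guanine nucleotide exchange factor, had each mutant pool above each control pool, with a log2 fold change of 0.12 (limma unadjusted p = 0.0385, adjusted p = 0.334). *Ctnnd1*, a catenin of adherens junctions, had a log2 fold change of -0.05 and *Cd44*, a hyaluronan receptor, one of -0.14. Counts per gene do not separate splice forms, which were not analysed here.

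*Elf3* was at 88.4, 105 and 103 in control pools and at 86.8, 70.6 and 71.7 in mutant pools. Mutant pool 1 lay just under control pool 1, and the log2 fold change was -0.37 (95% interval -0.71 to -0.04, limma adjusted p = 0.314). *Ehf* was close to the limit of detection. It had 6, 4 and 0 reads in control pools and 2, 0 and 1 reads in mutant pools, which made 10 and 3 reads in all. It passed the filter on low values through 3 libraries, of which control pools 1 and 2 were the highest, and its log2 fold change of -0.85 had a 95% interval of -2.62 to 0.92 (adjusted p = 0.689). It was -0.42 without mutant pool 2, -1.71 without control pool 3, -0.25 with a pseudocount of 10 and -1.74 in DESeq2, so its size is not settled at this depth.

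*Klf5* was at 56.0, 76.4 and 88.5 in control pools and at 40.9, 46.1 and 55.9 in mutant pools. Control pool 1 and mutant pool 3 each had 57 reads of *Klf5*, so the gap between the groups came from the size factors at that point. The log2 fold change was -0.60 (95% interval -1.07 to -0.14, limma unadjusted p = 0.0165, adjusted p = 0.241).

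Levels were compared between genes per kb of annotated exon (GENCODE M21). *Esrp1*, at 123 ± 13.3 normalized counts per kb (SD, n = 3), and *Esrp2*, at 121 ± 18.2, were the highest of the 10 in control pools, and their values overlapped. *Grhl2* followed at 56.4 ± 1.45 per kb, then *Elf3* at 44.7 ± 4.18, *Grhl3* at 27.2 ± 10.6 and *Ovol2* at 22.0 ± 1.27, of which the last 2 overlapped. *Klf5* was at 14.2 ± 3.16 per kb, *Grhl1* at 4.77 ± 0.72 and *Ovol1* at 3.05 ± 1.52, with *Grhl1* and *Ovol1* overlapping, and *Ehf* was lowest at 0.599 ± 0.54. In mutant pools the same neighbours overlapped, *Esrp1* being at 92.7 ± 8.24 and *Esrp2* at 84.3 ± 7.17 per kb. *Grhl2* made up 56.7 to 71.4% of the per-kb sum of the 3 Grainyhead-like genes in control pools and 60.3 to 74.5% in mutant pools. *Ovol2* made up 82.9 to 91.2% of the OVO-like sum in control pools and 75.5 to 87.2% in mutant pools. Genes on the opposite strand share exon bases with *Elf3* (162 bases), *Esrp1* (127), *Esrp2* (219 with *Nfatc3* and 119 with a noncoding gene), *Grhl2* (169), *Ovol1* (690 and 76) and *Ovol2* (359). The strand setting of the counting is not given in the sources used here, so reads of such partners cannot be told apart there.

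To place the regulators beside other epithelial genes, they were read against a panel of 10 that holds *Epcam*, keratins, *Shh*, *Spint2* and the transcription factors *Nkx2-1*, *Foxa1* and *Foxa2*. Which cells of the whole lungs the panel's reads came from was not tested. In the panel 2 genes were called lower by limma, edgeR and DESeq2, and *Krt19* was called higher by DESeq2 but not by the other tools. The panel's median log2 fold change was -0.25. *Krt8* (log2 fold change -0.55, limma adjusted p = 0.0128) and *Krt18* (-0.46, adjusted p = 0.0263), which pair as the filament proteins of simple epithelium, fell. *Krt19* was the panel gene with a higher mean in mutant pools (log2 fold change 0.44, limma adjusted p = 0.0734, DESeq2 adjusted p = 0.0241), and *Foxa1* was at -0.58 (adjusted p = 0.118). The 6 regulators with a mean of at least 50 were taken as a mean log2 value less that of the panel in the same library. This difference was -2.53, -2.51 and -2.17 in control pools, against -2.57, -2.80 and -2.57 in mutant pools. Mutant pools were below control pools, but mutant pool 1 differed from control pool 1 by less than the range of the control pools. Controls averaged -2.40 ± 0.20 (SD, n = 3) and mutants averaged -2.65 ± 0.13 (SD, n = 3), a difference of -0.24 (exact permutation p = 0.1, the smallest possible). The difference was -0.13 without control pool 3. With the panel's keratins left out it was -0.20 (exact permutation p = 0.4). It was -0.11 (exact permutation p = 0.8) when *Nkx2-1*, *Foxa1* and *Foxa2* alone formed the panel.

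For single genes relative to the panel, *Esrp1*, *Esrp2* and *Grhl2* had mutant pools below control pools without overlap, by -0.18, -0.29 and -0.19 on the log2 scale (exact permutation p = 0.1 for each). *Esrp1* relative to the panel was nearly constant in control pools at -0.56, -0.55 and -0.60, and stood at -0.71, -0.87 and -0.67 in mutant pools. *Elf3*, *Klf5* and *Grhl3* overlapped on this scale. Single genes were compared with the full panel only. Among the panel genes, *Nkx2-1*, *Foxa1* and *Foxa2* had log2 fold changes of -0.25, -0.58 and -0.24. Those of *Esrp1*, *Esrp2* and *Grhl2* were -0.40, -0.51 and -0.41, so their gaps relative to a panel depend on its genes. Whether they stay apart against *Nkx2-1*, *Foxa1* and *Foxa2* alone was not tested. With all libraries scaled to the panel, which raised the log2 fold change of each gene by 0.22, 0 of 10 regulators had a limma adjusted p under 0.05, where 0.355% of tested genes were called lower and 15.2% higher. *Esrp2* came closest, with a log2 fold change of -0.29 (95% interval -0.51 to -0.07, unadjusted p = 0.0155, adjusted p = 0.0681).

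**Figure D3:**
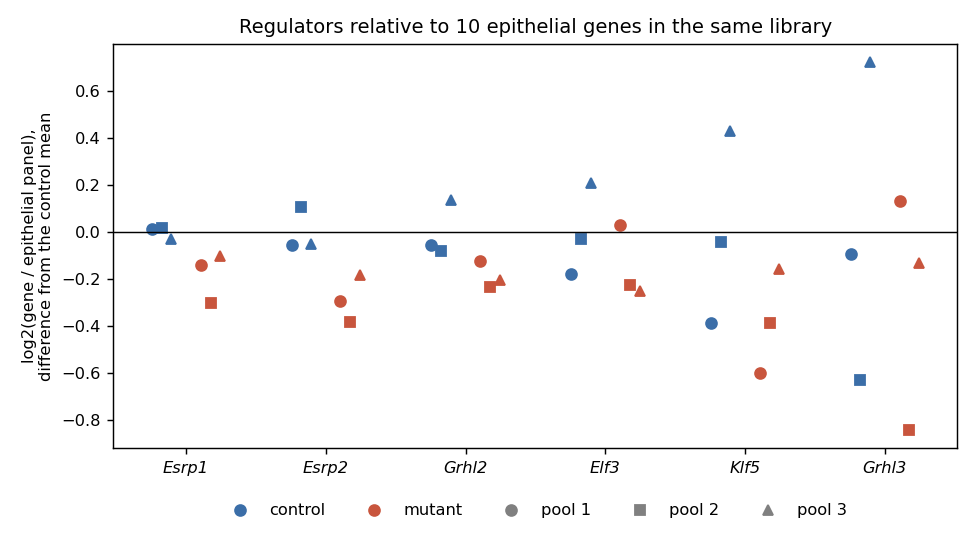
Log2 value of 6 regulators less the mean log2 value of the 10-gene epithelial panel in the same library, drawn as the difference from the control mean, for 3 control and 3 mutant pools. *Esrp1*, *Esrp2* and *Grhl2* have the mutant pools below the control pools, while control pool 3 stands far above the others for *Klf5* and *Grhl3*.

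Genes that carry out epithelial adhesion and apical functions, several of them known GRHL2 targets, had a median log2 fold change of -0.53. The list was drawn up with earlier results of these data known, so its counts are not independent support. Of 18 tested, limma and edgeR called 6 lower and 0 higher, which were *Cdh1*, *Cldn4*, *Cldn6*, *Spint1*, *Tjp3* and *Marveld2*. Over all tested genes, limma called 0.315% lower and edgeR 0.341%. In 13 each mutant pool was below each control pool, as in 10.5% of tested genes. DESeq2 called 10 lower and 0 higher, where it called 1.19% of all tested genes lower. *Tjp3*, a tight junction scaffold, fell from 130 ± 3.18 (SD, n = 3) to 69.9 ± 7.59 (SD, n = 3), by 0.90 on the log2 scale (limma adjusted p = 0.0345). *Marveld2*, which encodes tricellulin, fell by 0.67 on the log2 scale (adjusted p = 0.0383). *Spint1*, an inhibitor of membrane serine proteases, fell by 0.61 (adjusted p = 0.0358). *St14*, the protease that SPINT1 restrains, had a log2 fold change of -0.44 (adjusted p = 0.0611), *Cldn7* one of -0.56, *Ap1m2* one of -0.60 and *Lsr* one of -0.25. These did not pass in limma, and *St14* (DESeq2 adjusted p = 0.00173), *Cldn7* (0.00351) and *Ap1m2* (0.00425) passed in DESeq2. *Grhl2* and *Cdh1* had r = 0.99 over the 6 libraries, as a description of values that share libraries and groups. A high r with *Cdh1* was not particular to *Grhl2*, being 0.95 for *Esrp1*, 0.93 for *Esrp2* and 0.92 for *Ovol2*. *Grhl2* and *Epcam* had r = 0.74.

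**Figure D4:**
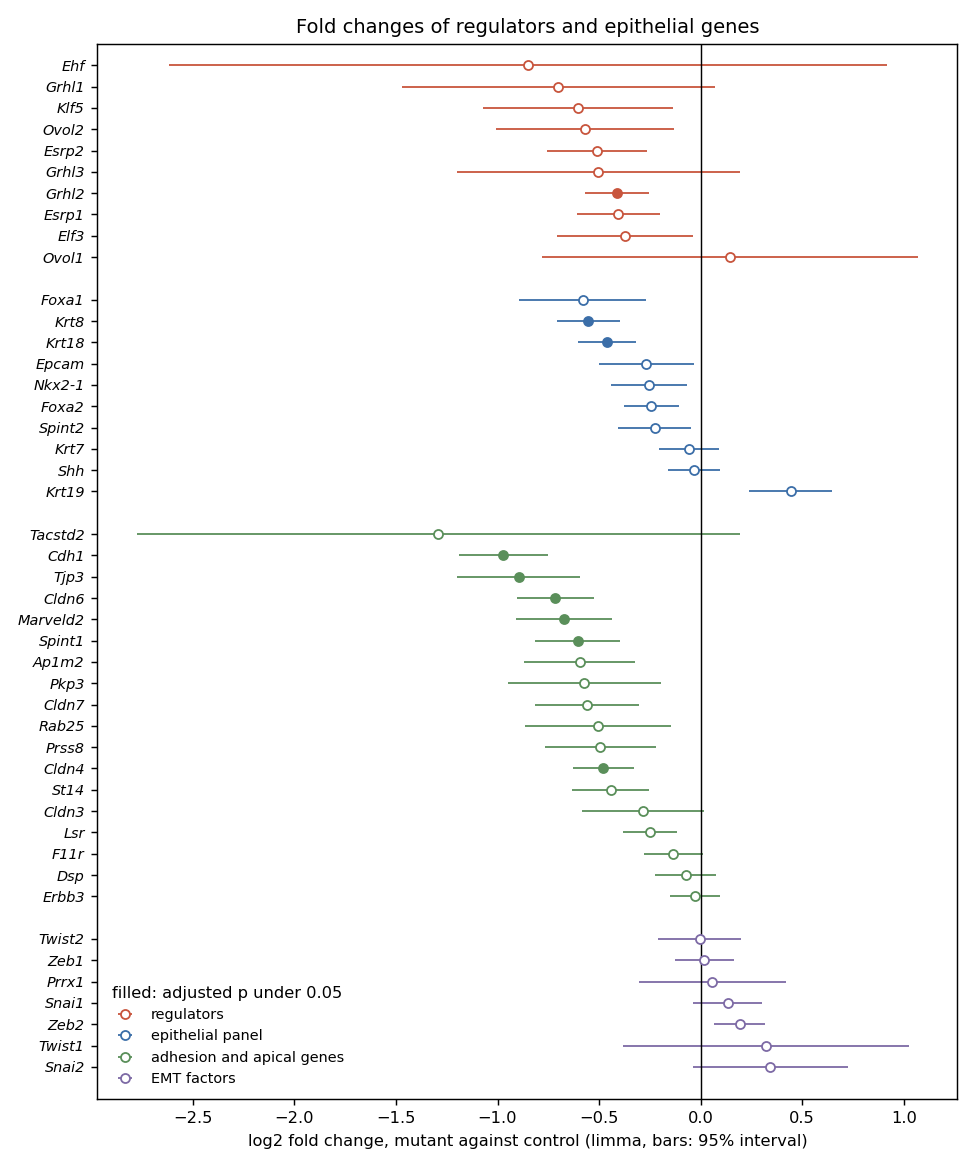
Log2 fold changes of mutant against control pools (points) with 95% intervals (bars) from limma, for the 10 regulators, the epithelial panel, the adhesion and apical genes and the EMT factors; filled points have an adjusted p under 0.05. Filled points are *Grhl2*, *Krt8*, *Krt18* and 6 adhesion and apical genes, all to the left of 0.

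Relatives of the regulators were taken from a list of 12, of which 11 were tested and 0 were called by limma or edgeR, while DESeq2 called *Elf5* lower. At an unadjusted limma p under 0.05, 3 were lower and 0 higher. *Rbm47*, an epithelial RNA-binding protein, was at 69.7, 73.3 and 85.5 in control pools and at 51.1, 37.3 and 43.2 in mutant pools (log2 fold change -0.79, limma adjusted p = 0.104). *Elf5*, an ETS factor of distal lung tips, was at 54.0, 54.8 and 22.9 in control pools and at 19.4, 10.8 and 14.7 in mutant pools (log2 fold change -1.42, adjusted p = 0.132, DESeq2 adjusted p = 0.0345). Control pool 3 was near the mutant pools for *Elf5* and highest of all for *Rbm47*. The broadly expressed relatives *Ubp1* (-0.11, adjusted p = 0.364) and *Elf4* (0.15, adjusted p = 0.370) had small fold changes.

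The mesenchymal factors that oppose epithelial identity numbered 7, of which 6 had a higher mean in mutant pools. Of all tested genes, 50.5% had a negative log2 fold change. *Zeb1*, 1 of the 6, was nearly unchanged (log2 fold change 0.02, limma adjusted p = 0.931). Limma, edgeR and DESeq2 called 0 of the 7, and 1 was higher at an unadjusted limma p under 0.05. *Zeb2* was at 3281, 3593 and 3081 in control pools and at 3910, 3769 and 3674 in mutant pools. These groups did not overlap (log2 fold change 0.19, 95% interval 0.07 to 0.32, limma adjusted p = 0.176). *Snai2* (0.34), *Twist1* (0.32) and *Snai1* (0.13) overlapped between groups. Of 8 mesenchyme markers, limma and edgeR called the 3 collagen genes *Col1a1*, *Col1a2* and *Col3a1* higher, and the other 5 did not pass. DESeq2 called these 3 and *Vim* (DESeq2 adjusted p = 0.0170) higher. The log2 fold change was 0.09 for *Pdgfra* and 0.11 for *Tbx4*, and both overlapped between groups. The sum of normalized counts over the 8 markers was 102662 to 109815 in control pools, against 125002 to 132537 in mutant pools. The 3 collagen genes had the highest counts in this sum. Of 3 mesothelium markers *Wt1* was called higher, with sums of 2618 to 3038 and 3188 to 3473. Endothelium (5 markers, sums of 8879 to 9935 and 9709 to 10430), macrophage (3 markers, 880 to 1230 and 1138 to 1213), heart muscle (4 markers, 601 to 817 and 449 to 631), neural (4 markers, 1474 to 1586 and 1211 to 1599) and blood markers (4 of 5 tested, 96002 to 123636 and 95116 to 118473) had 0 calls in limma and edgeR, and DESeq2 called 1 heart muscle gene, *Myh6*, lower. The part of tissue makeup in the regulators' values was not tested.

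The genes with the profile most like the mean standardized profile of the 6 more abundant regulators were sought among 12495 tested genes with a mean of at least 50. Pearson's r over the 6 libraries was 0.997 for *Frmd5*, 0.995 for *Fermt1*, *Lama1* and *Traf3ip1*, and 0.993 for *Polr3a*. *Fermt1*, an integrin activator of epithelia, fell from 135 ± 12.5 (SD, n = 3) to 64.7 ± 9.66 (SD, n = 3), by 1.05 on the log2 scale (limma adjusted p = 0.0345). *Lama1*, a laminin chain of the embryonic basement membrane, was at 904, 965 and 990 in control pools and at 793, 681 and 769 in mutant pools (log2 fold change -0.35, adjusted p = 0.0661). These r values rank many genes over few libraries and largely follow the split between the groups.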

How the data were processed

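Whole embryonic lungs (E11.5dpc) were pooled by genotype, and 3 control and 3 mutant libraries were sequenced on the BGISEQ platform. Per the labels, the submitters' processing notes name Trim Galore, HISAT2, featureCounts, DESeq2 and mm10, and versions, annotation and strand setting are not given in the sources used here. The authors deposited 1 table of normalized counts (a signal, reads divided by a size factor), with their mean, and with log2 fold changes, standard errors, a test statistic (a score) and p-values of their own comparison, which were not used.

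Values were whole multiples of 1 step in 6 of 6 libraries (tolerance 0.01 reads, 100% of values), which gave the recovered reads. For control pool 3 the step was close to 1. The main test was limma 3.58.1 in R 4.3.3 (trend, no block) of log2(normalized count + 1), run on genes that reached 1 in 3 or more libraries. P-values were adjusted by Benjamini-Hochberg and called under 0.05. Alternatives were limma without trend, pseudocounts of 0.1 and 10, no filter, at least 10 in every library, upper-quartile scaling, the replicate number as a block, leaving out each pool, scaling to the epithelial panel, edgeR 4.0.16 and DESeq2 1.42.0 on recovered reads, and, chosen after seeing the data, edgeR without control pool 3. Fits were tested on simulated data. Single values were compared with exact permutation tests. The pools are separate by label, but litters are not given. The sample titles do not give the sex of the embryos. *Xist*, a transcript of female cells, averaged 5966 in control and 223 in mutant pools (limma adjusted p = 0.164), and the groups overlapped. The sex makeup of the pools may thus differ between the groups, and its part in the values was not tested.

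The members and lists were chosen with earlier results of these data known. Genes named are the members, *Rptor*, for each list the genes with an adjusted p under 0.05 and up to 4 more with the lowest p (lists of up to 5 genes in full), and the 5 genes with the most similar profile. *Zeb1* and *Xist* are named besides. Coordinates and exon lengths are from GENCODE M21 (GRCm38).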

Additional observations from a re-analysis of the deposited data

How the results depend on the processing

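The number of genes called, 86, was 8 without the variance trend, 278 with DESeq2, 545 with edgeR on 5 libraries and 1 to 468 when 1 pool was left out. The number of regulators called, 1, was 0 without the trend, with a pseudocount of 10 and with the replicate block, 3 with DESeq2 and with edgeR on 5 libraries (*Grhl2*, *Esrp1* and *Esrp2*), and 0 to 3 when 1 pool was left out, the 3 being reached without control pool 3. The cause was not tested. The sign of the log2 fold change was kept under each alternative run for the other 9 regulators but not for *Ovol1*, which was -0.083 without control pool 3, -0.071 without mutant pool 1 (range -0.083 to 0.49 when 1 pool was left out) and -0.11 with edgeR on 5 libraries. The *Grhl3* to *Grhl2* ratio was between -0.37 and 0.20 when 1 pool was left out, with the sign turned without control pool 3 (0.20) and without mutant pool 2 (0.16). The *Esrp1* to *Esrp2* ratio was between 0.062 and 0.14 when 1 pool was left out. The *Elf3* to *Ehf* ratio was -0.083 with a pseudocount of 10 and between -0.14 and 1.37 when 1 pool was left out. Scaling to the epithelial panel gave 2601 genes higher and 61 lower, against 32 and 54. Over same-numbered pools the correlation of deviations from the group means was -0.03, 0.22 and 0.07. Over pools of unlike number it ran from -0.20 to 0.17. With 3 pools per group, these values cannot settle whether the replicate numbers paired the pools. The replicate block gave 71 genes. With 1 pool left out, the smallest exact permutation p was 0.2. Depth limits *Ehf* and *Ovol1*.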
